A study of Mus musculus with 5 samples.

Results

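Cxcl9 and Cxcl10 are 2 chemokine ligands and Cxcr3 is the receptor they share. These 3 genes were read by symbol from a table of 31053 genes counted in 5 single-cell libraries of mouse heart. Macrophages, endothelial cells, fibroblasts, dendritic cells and mural cells (the pericytes and smooth muscle cells of vessel walls) were read as senders of ligand. CD8 T cells, CD4 T cells and natural killer (NK) cells were read as receivers.

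Interferon-gamma, made by activated T and NK cells, acts through its receptor to induce Cxcl9 and Cxcl10. The secreted proteins draw T and NK cells that carry CXCR3, a G protein-coupled receptor of activated and memory T cells, NK cells and some dendritic cells. The axis is known for bringing T cells into inflamed tissue, the heart included.

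The series modelled myocarditis under immune checkpoint inhibition. Controls were Ctla4+/+Pdcd1-/- mice (2 libraries from 4 mice) and the disease group was Ctla4+/-Pdcd1-/- mice (3 libraries from 10 mice), so the controls also lacked Pdcd1, the gene of the checkpoint receptor PD-1. The groups differed in 1 copy of Ctla4, the gene of another T cell checkpoint receptor. In the per-sample genotype labels, control replicate 2 and disease replicate 4 read Pdcd2-/- and disease replicate 5 reads Pdcd3-/-, and the dye name counts up in the same way, while the series description gives Pdcd1-/- throughout. Hearts were pooled, digested with collagenase, DNase and hyaluronidase, and sorted for cells positive for the nuclear dye DRAQ5 and negative for the dead-cell dye DAPI. The sources used here give no age, no batch and no map from mice to libraries, so p-values measure the spread between libraries, which may be partly technical, and batch and genotype cannot be told apart.

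The libraries held 24991704 to 55053988 unique molecular identifiers (UMIs, 1 per captured transcript). After filters and doublet removal, 37054 of 47319 barcodes were kept as cells, with library medians of 3333 to 4540.5 UMIs per cell. Pairs of libraries shared 49 to 97 barcodes, at most 1.475% of the smaller library. Cells were assigned to a lineage by the number of distinct marker genes they held, and 33935 cells fell into the 8 lineages. Pdcd1 was detected in CD8 cells of all 5 libraries, at 85.7 to 1125 counts after scaling each sum to 1000000 UMIs (CPM). The deleted part of the gene is not given in the sources used here, so these 5′ tags do not check the label. Ctla4 in CD8 cells was 361 and 36.1 CPM in controls and 172, 619 and 538 CPM in disease, and so overlapped between the groups.

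T cell content did not follow the labels. CD8 cells were 4.95% of control replicate 1, 0.783% of control replicate 2 and, for disease replicates 3 to 5 in order, 1.32%, 20.4% and 6.57%. Disease replicate 3 thus lay below control replicate 1. Further values are listed in this order of replicates, 1 and 2 for controls and 3 to 5 for disease. The summed macrophage markers were 20999 to 27973 CPM in macrophages, 171 to 534 CPM in endothelial cells, 180 to 388 CPM in fibroblasts and 92.8 to 256 CPM in CD8 cells. The summed T cell markers were 2.78 to 120 CPM in macrophages, 7.43 to 190 CPM in endothelial cells and 5.47 to 119 CPM in fibroblasts. The part of RNA from other cells in the results was not tested.

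Cxcl9 and Cxcl10 are neighbours. On GRCm38 with GENCODE M21, the protein-coding gene Cxcl9 (ENSMUSG00000029417) spans chr5:92321347-92328079 and Cxcl10 (ENSMUSG00000034855) spans chr5:92346638-92348889, both on the minus strand, with up to 4 exons each and 18558 bases between them. Cxcr3 (ENSMUSG00000050232) spans chrX:101731535-101734269 on the minus strand, with 2 exons. Cxcl10 lies inside Art3, which runs on the plus strand from chr5:92331827-92414628. The strand rule of the counting is not given in the sources used here. Endothelial Art3 was 162 and 159 CPM in controls and 161, 201 and 184 CPM in disease.

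The 250 bases upstream of each ligand gene are shown because the pair was often high in the same libraries and because the windows differ in the motif matches found. They come from the RefSeq promoter table (build GRCm38.p6), read 5′ to 3′ on the minus strand and ending at the base before the annotated start, and capitals mark motif matches.
Cxcl9, chr5:92328080-92328329: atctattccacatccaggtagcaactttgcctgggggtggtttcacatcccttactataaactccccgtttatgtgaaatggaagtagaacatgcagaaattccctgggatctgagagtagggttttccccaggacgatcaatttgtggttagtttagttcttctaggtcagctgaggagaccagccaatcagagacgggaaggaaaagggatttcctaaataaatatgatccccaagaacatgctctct
Cxcl10, chr5:92348890-92349139: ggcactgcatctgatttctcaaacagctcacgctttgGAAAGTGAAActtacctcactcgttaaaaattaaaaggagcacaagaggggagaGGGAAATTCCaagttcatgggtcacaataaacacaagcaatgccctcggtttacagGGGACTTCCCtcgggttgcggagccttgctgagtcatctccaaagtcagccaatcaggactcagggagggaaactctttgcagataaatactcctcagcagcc

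Matches on either strand are given for 2 motifs, and no 2 of them overlapped. The interferon-stimulated response element (ISRE) was searched as GAAA, any 2 bases and GAAA, and NF-kappaB by its named consensus. The Cxcl10 window held 1 ISRE match, GAAAGTGAAA, at bases 213 to 204 before the start. It also held NF-kappaB matches GGGAAATTCC at bases 159 to 150 and GGGACTTCCC at bases 103 to 94. No match to these letters was in the Cxcl9 or Cxcr3 window. Among 32851 promoter windows of the same length, 2.977% held an ISRE match and 3.899% an NF-kappaB match.

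Cxcl9 was concentrated in macrophages, dendritic cells and endothelial cells. In macrophages it was 349 and 17.5 CPM in controls and 207, 2253 and 880 CPM in disease. The groups overlapped, since disease replicate 3 lay below control replicate 1. In endothelial cells Cxcl9 was 275 and 134 CPM in controls and 135, 1185 and 413 CPM in disease. Disease replicates 4 and 5 again stood above both controls, and disease replicate 3 lay between them. Dendritic cells, which take up antigen and prime T cells, held 596 CPM in control replicate 1 and 169, 1013 and 577 CPM in disease. Control replicate 2 gave only 2 dendritic cells with no Cxcl9 UMI, which is no measure of the level there.

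In fibroblasts Cxcl9 was lower, at 13.2 and 1.82 CPM in controls and 11.9, 145 and 133 CPM in disease. Mural cells held 1 and 0 Cxcl9 UMIs in 71 and 56 control cells, and 0, 5 and 5 UMIs in 35, 35 and 52 disease cells. B cells were not among the senders read here and served as the measure of free RNA. Whether they expressed the ligands themselves was not tested. They held Cxcl9 at 11.9 and 1.29 CPM in controls and 4.67, 46.5 and 15.8 CPM in disease. Cxcl9 in CD8 cells (0 to 35.0 CPM) lay at or below the B cell level in 4 of 5 libraries. In disease replicate 5 it was 20.3 CPM.

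Cxcl10 had a different order of senders. Macrophages held 203 and 72.0 CPM in controls and 202, 1152 and 426 CPM in disease. Fibroblasts came next among the 3 large lineages, at 79.0 and 54.8 CPM in controls and 29.8, 635 and 173 CPM in disease. Endothelial cells held less, 57.6 and 12.6 CPM in controls and 22.8, 197 and 54.2 CPM in disease. In each of these lineages disease replicate 4 was the highest library, and controls and disease overlapped. Dendritic cells held 295 CPM in control replicate 1 and 81.9, 390 and 145 CPM in disease. Mural cells held 8 and 0 UMIs in controls and 0, 27 and 2 in disease, and 1 cell carried 26 of the 27.

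**Figure D1:**
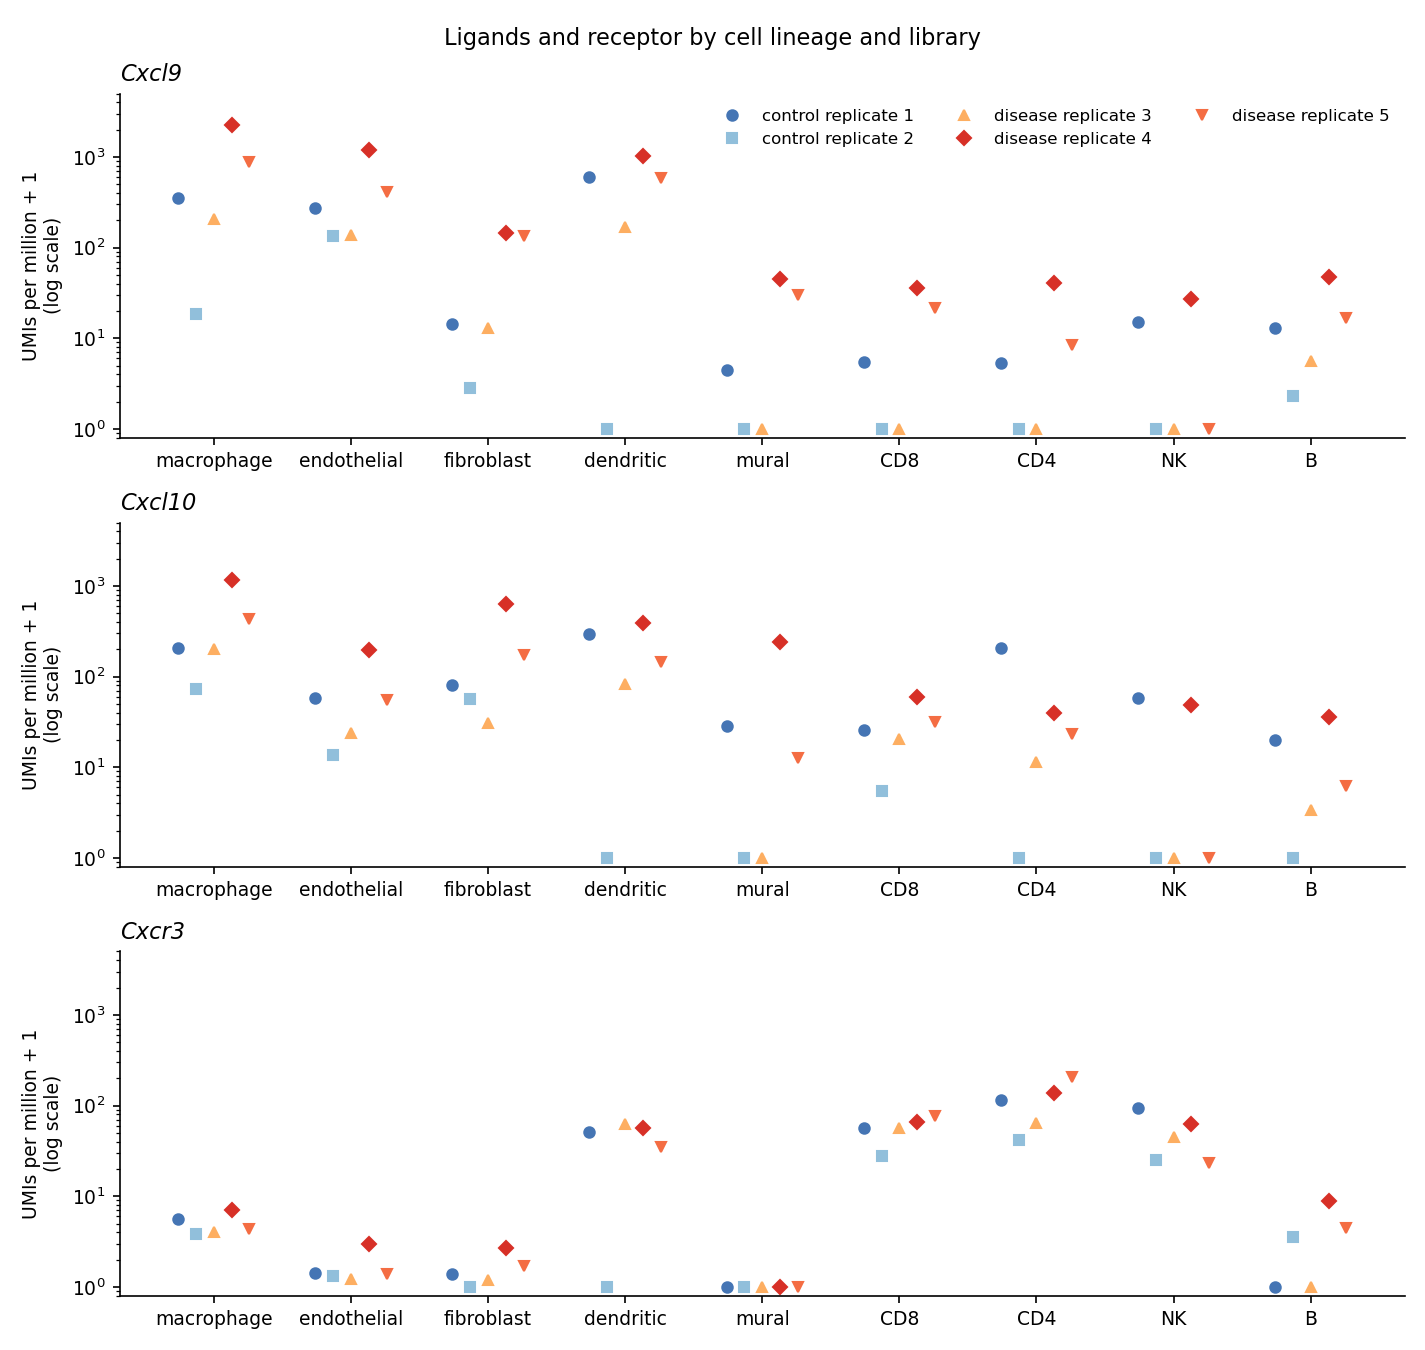
Levels of Cxcl9, Cxcl10 and Cxcr3 in CPM + 1 on a log axis, by lineage, with 1 point per library and no averaging. Ligand points spread widely within a lineage, macrophage Cxcl9 from 17.5 to 2253 CPM, while Cxcr3 stays between 27.1 and 75.1 CPM in CD8 cells. A point at the bottom of the axis is a library with 0 UMIs, which for dendritic cells of control replicate 2 rests on 2 cells.

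Between senders, levels were compared across all genes with the library as a block, since lineages of a library share hearts. Cxcl9 did not differ between macrophages and endothelial cells beyond the spread (log2 difference 0.37, SE 0.42, adjusted p = 0.443, where 72% of genes passed the test). Without control replicate 2 it was 1.11 higher in macrophages (adjusted p = 0.000637). Macrophages exceeded fibroblasts by 3.98 (SE 0.45, adjusted p = 3.32e-08, where 72% of genes passed) and mural cells by 6.15 (SE 0.83, adjusted p = 1.42e-06, 43.6% of genes). Endothelial cells exceeded fibroblasts by 3.61 (SE 0.46, adjusted p = 2.43e-07, 68.8% of genes) and mural cells by 5.78 (SE 0.86, adjusted p = 9.35e-06, 34.5% of genes). Fibroblasts and mural cells were 2.17 apart (SE 1.05, adjusted p = 0.129, 31% of genes).

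For Cxcl10, macrophages stood above endothelial cells by 2.90 (SE 0.27, adjusted p = 1.21e-09), above fibroblasts by 1.56 (SE 0.26, adjusted p = 9e-06) and above mural cells by 3.88 (SE 0.42, adjusted p = 5.71e-08). Endothelial cells, high for Cxcl9, were lower than fibroblasts for Cxcl10, with a log2 difference of -1.34 (SE 0.26, adjusted p = 7.22e-05). Fibroblasts exceeded mural cells by 2.32 (SE 0.44, adjusted p = 0.000231), and endothelial and mural cells were 0.98 apart (SE 0.48, adjusted p = 0.119). Without the block the differences of macrophages and of endothelial and mural cells from fibroblasts did not pass for Cxcl10 (adjusted p = 0.222, 0.193 and 0.148).

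The ratio of Cxcl9 to Cxcl10 UMIs set the senders apart within every library. It was 4.78 and 10.6 in control and 5.93, 6.0 and 7.62 in disease endothelial cells. Macrophages had 1.72 and 0.243 in controls and 1.02, 1.96 and 2.06 in disease. In fibroblasts it was 0.167 and 0.0333 in controls and 0.399, 0.228 and 0.768 in disease. Endothelial cells had the highest ratio of the 3 and fibroblasts the lowest in 5 of 5 libraries. A 5′ UMI is 1 tag per molecule, so the ratio carries no transcript length.

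Because lineages differ in cell number and RNA content, the share of a ligand's UMIs that each lineage held was also counted. Endothelial cells held 41.6% of Cxcl9 UMIs in control replicate 1, 92.5% in control replicate 2, and 54.6%, 19.3% and 39.8% in disease. Macrophages held 42.8% and 3.19% in controls and 32.2%, 69.6% and 39.3% in disease. Macrophages were the largest source in control replicate 1 and disease replicate 4, and endothelial cells in the other 3 libraries, by a margin under 1 percentage point in disease replicate 5. Fibroblasts held 1.16% to 16.6% of Cxcl9. Of Cxcl10, fibroblasts held 35.1% and 57.5% in controls and 22.9%, 31.8% and 44.5% in disease, against 40.8% and 21.7%, then 51.5%, 55.4% and 39.2% in macrophages. Dendritic cells, at most 0.642% of cells, held up to 3.84% of Cxcl9 and 3.11% of Cxcl10.

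**Figure D2:**
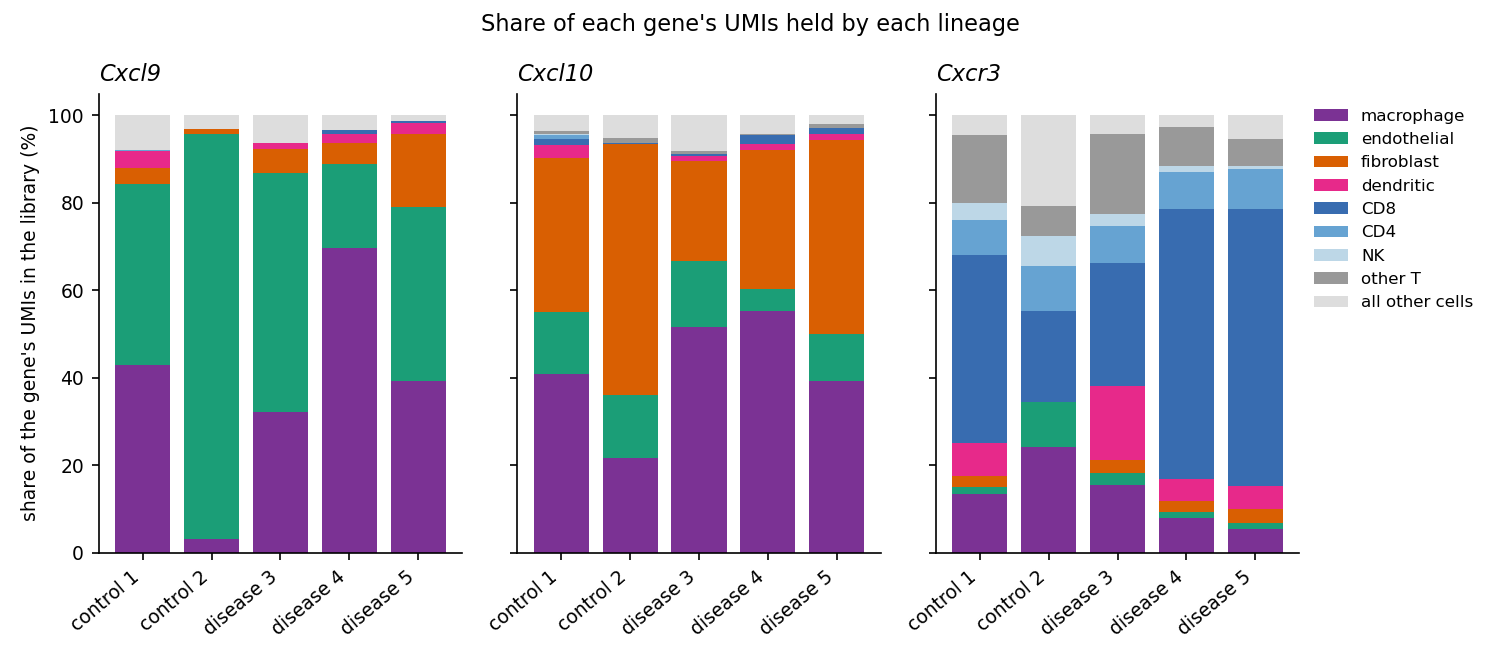
Share of the UMIs of each gene (percent of the library's total for that gene) held by each lineage, as stacked bars, 1 per library. Cxcl9 comes mostly from macrophages and endothelial cells, and Cxcl10 mostly from macrophages and fibroblasts. CD8 cells hold 20.7% to 63.4% of Cxcr3 and CD4 cells 7.98% to 10.3%. T cells in neither the CD8 nor the CD4 group (other T) hold 6.15% to 18.3%, and dendritic cells 0% to 16.9%. Macrophages hold 5.50% to 24.1%, above the CD8 share in control replicate 2 (7 UMIs against 6). The part of free RNA in the macrophage share was not tested.

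The central comparison asks whether the axis was higher in the disease libraries. None of the 14 tests of a member in a lineage or over all cells passed (edgeR quasi-likelihood test, Benjamini-Hochberg over all genes), and DESeq2 called 0 of them too. All 14 fitted changes were above 0, and 3 had an unadjusted edgeR p under 0.05, namely macrophage Cxcl10 (0.0415), fibroblast Cxcl9 (0.039) and CD8 Cxcl9 (0.0282). Over all cells 6.46% of genes passed, 0.0372% in the higher direction. Cxcl9 over all cells was 160 and 59.8 CPM in controls and 89.3, 866 and 320 CPM in disease, a log2 change of 2.04 (SE 1.1, adjusted p = 0.456). Cxcl10 was 98.0 and 36.2 CPM against 54.4, 557 and 156 CPM (2.03, SE 1.15, adjusted p = 0.469). Cxcr3 was 6.71 and 1.26 CPM against 2.75, 20.1 and 8.83 CPM (1.47, SE 1.1, adjusted p = 0.543). Without disease replicate 4 these changes were 0.83, 0.58 and 0.45, and without control replicate 1 they were 2.98, 2.98 and 3.22. Without control replicate 2 that of Cxcr3 was 0.72. In summed libraries, more cells of a type and more RNA per cell cannot be told apart.

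In macrophages the fitted log2 change was 2.72 for Cxcl9 (SE 1.44, adjusted p = 0.375) and 2.24 for Cxcl10 (SE 0.89, adjusted p = 0.255). There, 6.46% of genes passed in either direction and 0.178% as higher in disease. Without disease replicate 4 these became 1.58 and 1.22, and without control replicate 1, 6.24 and 3.28. When every gene with at least 1 count was tested, macrophage Cxcl10 passed. Its adjusted p was 0.0122 there and up to 0.868 over its 14 alternatives.

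In endothelial cells, where 12% of genes passed and 0.348% as higher in disease, the change was 1.41 for Cxcl9 (SE 0.90, adjusted p = 0.393) and 1.28 for Cxcl10 (SE 1.05, adjusted p = 0.495). It came to 0.35 and 0.06 without disease replicate 4, and to 2.03 and 2.77 without control replicate 1. In fibroblasts the fitted change of Cxcl9 was 3.54 (SE 1.32, adjusted p = 0.158), on 16 UMIs in control replicate 2, with 12.6% of genes passing and 0.352% as higher. It was 3.09 without disease replicate 4 and passed without disease replicate 3 (4.05, adjusted p = 0.0466). Fibroblast Cxcl10 had a change of 2.00 (SE 1.19, adjusted p = 0.331), and of 0.55 without disease replicate 4. In mural cells no member had enough counts for the test, which 5.74% of the 3084 genes tested passed. Dendritic and NK cells had too few cells in a library to be tested.

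**Figure D3:**
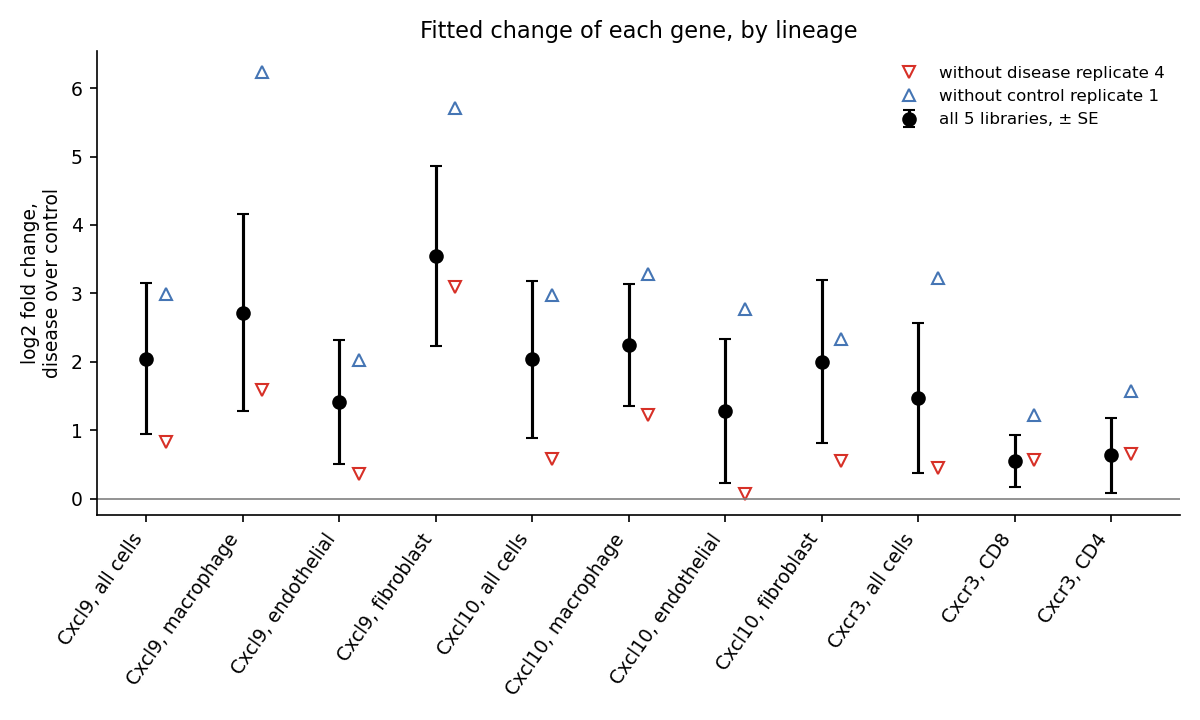
Fitted log2 fold change of disease over control with its SE (black), for the ligands over all cells and in senders and for Cxcr3 over all cells and in receivers. Open triangles give the fit without disease replicate 4 (red) or without control replicate 1 (blue). Every black point lies above 0 and no test passed. Leaving out disease replicate 4 brings endothelial Cxcl10 to 0.06.

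Whether a ligand changed by different amounts in 2 senders was tested for 6 pairs of senders. Of 12 such tests none passed after adjustment and 2 had an unadjusted p under 0.05. The change of Cxcl9 was 2.70 smaller in endothelial cells than in fibroblasts (log2 difference of changes -2.70, SE 0.66, unadjusted p = 0.000606, adjusted p = 0.363, where 0.00667% of genes passed). It was 1.92 larger in macrophages than in endothelial cells (SE 0.62, unadjusted p = 0.00546, adjusted p = 0.466, 0.113% of genes). That macrophage value passed without control replicate 1 (3.98, adjusted p = 0.0148). For Cxcl10 the difference between macrophages and endothelial cells was 0.83 (SE 0.47, adjusted p = 0.785). Between macrophages and fibroblasts 0.14% of genes passed, and 0% in each pair with mural cells.

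The order of the libraries was the same for the T cells and most ligand levels. Ranked from low to high, the 5 libraries had the same order (control 2, disease 3, control 1, disease 5, disease 4) for the share of CD8 cells, for Cxcl9, Cxcl10 and Ifng over all cells, for Cxcl9 in macrophages, endothelial cells and fibroblasts, and for Cxcl10 in macrophages. Endothelial Cxcl10 departed from it, with control replicate 1 above disease replicate 5, and so did fibroblast Cxcl10, with disease replicate 3 below control replicate 2. Dendritic cells departed for both ligands, with control replicate 1 above disease replicate 5. Mural cells held too few UMIs to be ranked. Ifng, the interferon-gamma gene, was 27.7 and 1.34 CPM over all cells in controls and 6.94, 105 and 31.7 CPM in disease. With 5 libraries no correlation is given, and the part of T cell content in the ligand levels was not tested.

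Cells differ in depth by lineage, with median UMIs of 2204 to 3123 in endothelial cells and 4995.5 to 7119 in macrophages. Each cell was therefore thinned to 1000 UMIs before shares of cells were compared, and cells with fewer were left out. In the order of replicates these were 103, 240, 127, 332 and 251 endothelial cells, 41, 33, 31, 66 and 34 macrophages, 15, 32, 16, 42 and 24 fibroblasts, 5, 0, 0, 38 and 2 CD8 cells and 4, 10, 4, 36 and 4 B cells. At this depth Cxcl9 was found in 5.71% (95% Wilson interval 4.57 to 7.10) and 1.07% (0.456 to 2.47) of macrophages in controls. In disease the shares were 3.72% (2.44 to 5.62), 40.4% (38.0 to 42.9) and 16.2% (13.7 to 19.1). Intervals cover counting error only, and by them disease replicates 4 and 5 were above all others while disease replicate 3 and control replicate 1 overlapped. The means were 3.39% ± 3.28 (SD, n = 2) and 20.1% ± 18.7 (SD, n = 3), with an exact permutation p = 0.3, adjusted p = 1 over 18 tests. An exact permutation of 2 against 3 libraries cannot give a p below 0.1.

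In endothelial cells the share with Cxcl9 was 14.6% and 9.93% in controls and 9.53%, 29.5% and 16.6% in disease (exact permutation p = 0.5, adjusted p = 1). In both controls and disease replicate 3, a larger share of endothelial cells than of macrophages held Cxcl9. The reverse held in disease replicate 4, and in disease replicate 5 the intervals overlapped. Fibroblast shares of 0.741% and 0.0722% in controls and 0.212%, 5.52% and 2.93% in disease were close to those of B cells, 1.67%, 0%, 0%, 6.40% and 1.01%. Median depths before thinning were 5427 to 6196.5 UMIs in fibroblasts and 2319 to 3066.5 in B cells. In control replicate 1 and disease replicate 4 the fibroblast share was below the B cell share, with overlapping intervals (0.499 to 1.1 and 0.458 to 5.87, then 4.62 to 6.58 and 4.43 to 9.15). In control replicate 2 and disease replicate 3, 0 of 268 and 0 of 150 B cells allow shares up to 1.12% and 2%. In disease replicate 5 the fibroblast share was the higher, with overlapping intervals (2.30 to 3.73 and 0.277 to 3.61). By CPM, fibroblast Cxcl9 was above the B cell level in 5 of 5 libraries, and in disease replicate 4, 35 fibroblasts with at least 10 UMIs held 73.7% of it. In disease replicate 3 a single fibroblast carried 87 of the 128 UMIs. Control replicate 2 had 16 fibroblast UMIs and 1 B cell UMI. The shares and the CPM thus gave different orders.

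Cxcl10 at equal depth was found in 8.48% and 3.41% of control macrophages and 7.79%, 28.9% and 12.8% of disease macrophages (exact permutation p = 0.4, adjusted p = 1). Fibroblast shares were 4.20% and 2.31% in controls and 1.53%, 17.9% and 4.58% in disease, beside B cell shares of 2.50%, 0%, 0%, 4.27% and 0%. The intervals of both overlapped in control replicate 1 (3.56 to 4.95 and 0.854 to 7.09) and disease replicate 3 (1.07 to 2.19 and 0 to 2.50). Endothelial shares were 2.40% and 0.539% in controls and 0.712%, 6.06% and 2.08% in disease. Their intervals overlapped those of B cells in every library, and in control replicate 1 the endothelial share was below the B cell share. Fibroblasts had a larger share than endothelial cells in 5 of 5 libraries.

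**Figure D4:**
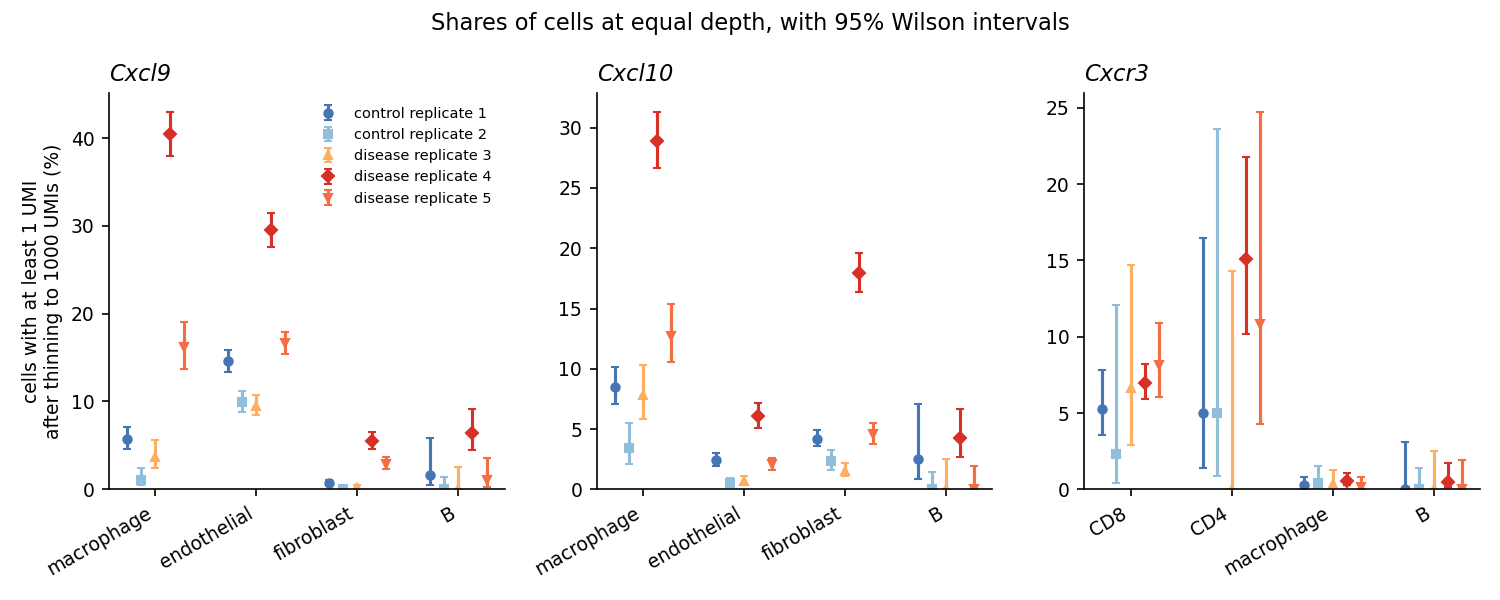
Percent of cells with at least 1 UMI after thinning each cell to 1000 UMIs, with 95% Wilson intervals, 1 point per library. B cells serve as background for free RNA, though whether they expressed these genes themselves was not tested. Disease replicate 4 stands above the other libraries for both ligands in macrophages (40.4% and 28.9%), and Cxcr3 is at 2.33% to 8.16% in CD8 cells against at most 0.534% in macrophages.

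How far the ligands sat in few cells was read from cells with at least 10 UMIs. Macrophages with at least 10 Cxcl9 UMIs were 3.89% and 0.199% of macrophages in controls and 2.35%, 31.4% and 11.7% in disease. They held 89.6% to 95.3% of macrophage Cxcl9 UMIs in 4 libraries and 34.1% in control replicate 2, where 1 cell qualified. A single macrophage of disease replicate 4 carried 339 Cxcl9 UMIs. Of endothelial cells, which had lower depth, those with at least 10 Cxcl9 UMIs held 36.8% and 7.99% in controls and 19.1%, 75.9% and 56.3% in disease, and the median positive cell held 1 or 2 UMIs. Fibroblast Cxcl10 in disease replicate 4 was held to 83.3% by 227 cells, 10.6% of fibroblasts there.

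In macrophages and endothelial cells both ligands were found together more often than the product of their shares. In macrophages at equal depth, cells with both were 3.19 and 5.86 times that product in controls and 5.50, 1.69 and 2.95 times in disease. Disease replicate 4 had 296 such cells (19.8%), and control replicate 2 had 1. Endothelial values were 2.91 and 2.88 in controls and 5.25, 1.94 and 3.28 in disease. In fibroblasts the values were 5.95 and, on 1 cell, 43.3 in controls and 0, 1.44 and 4.44 in disease, and no mural cell held both. Of endothelial cells with Cxcl10, 28.6% to 57.3% also held Cxcl9. Cells are not replicates, so this measure has no test.

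Macrophages with and without a Cxcl9 UMI were compared for other interferon-gamma response genes. Gbp2, Gbp4 and Gbp5 (guanylate-binding proteins that restrict pathogens inside cells), Cd274 (the PD-1 ligand PD-L1), Fcgr4 (an activating Fc receptor) and Cxcl10 were higher in 5 of 5 libraries, as were 5.38% of the 13245 genes with a UMI in macrophages of every library. Gbp3, Igtp, Irgm1, Iigp1 and Ciita were higher in 4 of 5, Irgm2 in 3 of 5, Irf1 in 2 of 5 and Ido1 in 1 of 5. Cd274, for example, was 130 and 92.3 CPM in control and 142, 368 and 238 CPM in disease cells with Cxcl9. Cells without it held 21.8 and 10.7 CPM in controls and 9.94, 63.9 and 22.8 CPM in disease. Genes of tissue-resident heart macrophages were lower in the cells with Cxcl9 in 5 of 5 libraries, namely Lyve1, Timd4, Folr2, Cd163, Cbr2 and Gas6, as were 28% of those 13245 genes. Control replicate 2 had only 12 macrophages with Cxcl9. In endothelial cells Gbp2, Gbp3, Gbp5, Irgm2, Iigp1, Cd274 and Cxcl10 were higher with Cxcl9 in 5 of 5 libraries, as were 5.17% of 14823 genes. Gbp4, Igtp, Ciita and Ido1 were higher in 4 of 5, Irgm1 and Irf1 in 2 of 5 and Fcgr4 in 1 of 5.

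Splitting lineages by marker lists placed the ligands further. A cell joined a subset with at least 2 distinct markers of its list and more than of any other. Macrophages of the recruited list (Ccr2, Ly6c2, Plac8, Itgax, Fcgr4, Chil3) held Cxcl9 at 1196 and 179 CPM in controls and 957, 3570 and 2373 CPM in disease. Those of the resident list held 130 and 5.50 CPM in controls and 85.6, 1045 and 288 CPM in disease. The recruited level was the higher in 5 of 5 libraries. In control replicate 2 it rested on 14 cells, where 3 cells held the 25 UMIs and 1 of them held 15. Disease replicate 3 had 33 recruited-list cells. Macrophages of neither list were 21.1% to 24.2% of macrophages and held 9.24% to 26.1% of their Cxcl9 UMIs. The recruited list made up 8.82% and 2.79% of macrophages in controls and 5.54%, 29.9% and 15.8% in disease. Fcgr4, in that list, is itself induced by interferon-gamma, so the split is not independent of the response. For Cxcl10, resident macrophages held 61.8% and 61.3% of macrophage UMIs in controls, and 48.7%, 23.4% and 26.3% in disease. They were 67.3% and 74.7% of macrophages in controls and 73.3%, 45.9% and 61.6% in disease. Their Cxcl10 level was 194 and 55.5 CPM in controls and 129, 633 and 192 CPM in disease. Recruited-list cells held 241 and 157 CPM in controls and 522, 1647 and 905 CPM in disease, the higher level in 5 of 5 libraries. In control replicate 2 this rested on 22 UMIs in 14 cells.

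Among endothelial cells, those of the capillary list (Car4, Rgcc, Gpihbp1 and others) held 93.0% to 95.6% of endothelial Cxcl9 UMIs while being 83.0% to 86.4% of the cells. Their level was 312 and 150 CPM in controls and 151, 1324 and 466 CPM in disease. Arterial cells held 13.2 and 29.9 CPM in controls and 21.3, 222 and 41.2 CPM in disease, below capillary cells in 5 of 5 libraries. Endocardial cells, which line the heart chambers, held at most 1 Cxcl9 UMI in any library. In disease replicate 4, however, 9 endocardial cells held 239 Cxcl10 UMIs and 0 of Cxcl9, and venous cells of disease replicate 5 held 128 Cxcl10 UMIs in 33 cells. A single cell carried 193 of the 239 and another 126 of the 128.

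**Figure D5:**
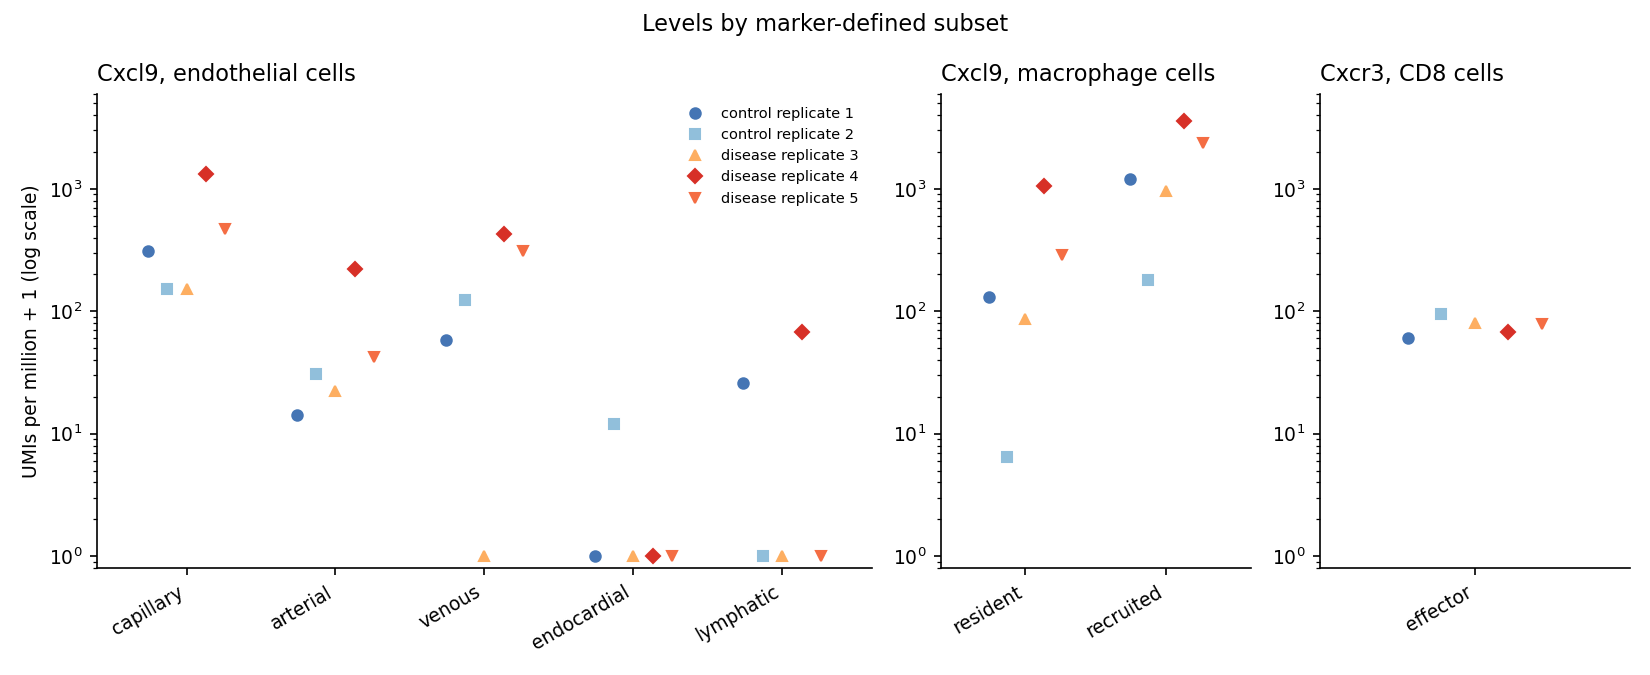
Levels in CPM + 1 on a log axis by marker-defined subset, 1 point per library. Capillary endothelial cells and recruited-list macrophages carry the most Cxcl9, the latter up to 3570 CPM. Effector-list CD8 cells hold Cxcr3 at 59.7 to 94.2 CPM.

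The receptor was found where it is known to be. Cxcr3 in CD8 cells was 56.22 and 27.1 CPM in controls and 56.23, 64.7 and 75.1 CPM in disease, from 140, 6, 20, 573 and 196 UMIs. The lowest library was control replicate 2, and disease replicate 3 was level with control replicate 1 to the first decimal. The groups did not overlap, as was so for 12.2% of all genes tested in CD8 cells in the higher direction. The fitted change was 0.55 (SE 0.38, adjusted p = 0.599), where 4.38% of genes passed. It was 1.22 without control replicate 1, 0.25 without control replicate 2 and 0.06 with the same number of cells from each library. In CD4 cells Cxcr3 was 114 and 40.9 CPM in controls and 63.1, 138 and 206 CPM in disease, overlapping, with a change of 0.63 (SE 0.55, adjusted p = 0.670, where 4.97% of genes passed). That change was 1.57 without control replicate 1, 0.36 without control replicate 2 and 0.33 without disease replicate 5. NK cells, at 13 to 64 cells per library, held 92.1 and 24.0 CPM in controls and 44.3, 61.1 and 22.4 CPM in disease, on 2 to 14 UMIs each.

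Cxcr3 was lower in CD8 than in CD4 cells by a log2 difference of -1.03 with the library as a block (SE 0.21, adjusted p = 0.00397, where 6.57% of genes passed). By CPM the direction was the same in 5 of 5 libraries. In control replicate 2 the CD4 level came from 3 UMIs in 1 of 20 cells. At equal depth a smaller share of CD4 than of CD8 cells held Cxcr3 in control replicate 1 (5% against 5.29%). Disease replicate 3 went the same way (0 of 23 cells against 6.67%), and the other libraries went the opposite way. The level difference passed with all libraries but not without disease replicate 4 or 5 (adjusted p = 0.0614 and 0.0715), nor without the block (0.434). With a minimum of 10 cells, a setting chosen after seeing the data, CD4 cells exceeded NK cells by 1.12 (SE 0.32, adjusted p = 0.0192, where 15.6% of genes passed). CD8 and NK cells were 0.10 apart (SE 0.32, adjusted p = 0.914, 14.1% of genes).

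An effector list was read within the CD8 cells. Effector-list cells (Gzmb, Nkg7, Ccl5, Gzmk, Prf1, Ccl4) held Cxcr3 at 59.7 and 94.2 CPM in controls and 78.8, 66.4 and 77.8 CPM in disease, with no order by group. In control replicate 2, the library with the lowest CD8 level, the 9 effector-list cells gave 3 UMIs. Effector-list cells were 89.8% and 20.9% of CD8 cells in controls and 57.3%, 92.6% and 91.7% in disease, and their part in the CD8 level of Cxcr3 was not tested. At equal depth 5.29% and 2.33% of CD8 cells in controls and 6.67%, 6.95% and 8.16% in disease held Cxcr3. The groups did not overlap, for which the exact permutation test gave p = 0.1 (adjusted p = 0.9). The share in control replicate 2 was 1 of 43 cells. Without thinning the shares were 23.4% and 13.95% in controls and 20%, 21.4% and 27.4% in disease, and the groups overlapped. Over all CD8 cells the means were 3.81% ± 2.09 (SD, n = 2) and 7.26% ± 0.795 (SD, n = 3).

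Among regulatory-list CD4 cells (Foxp3, Il2ra, Ikzf2, Tnfrsf18), which restrain other T cells, Cxcr3 gave 16, 3, 2, 25 and 10 UMIs in 9, 1, 4, 38 and 9 cells. Dendritic cells also carried the receptor, at 49.8 CPM in control replicate 1 and 61.4, 55.9 and 33.7 CPM in disease. All 50 dendritic cells with a Cxcr3 UMI were among the 112 that held Clec9a or Xcr1, markers of the cross-presenting cDC1 type, and 0 of the other 24 did, which allows up to 12.5% of such cells to hold a UMI and sets no limit on how many express the gene. Macrophages held Cxcr3 at 2.78 to 5.99 CPM, endothelial cells at 0.215 to 2.00 CPM and fibroblasts at 0 to 1.71 CPM. In mural cells 0 UMIs were found, which allows at most 10.3 to 26.7 CPM per library.

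Among 10537 genes over 37 library-by-lineage sums, those with a pattern most like each member were named by Pearson's r of log2(CPM + 1). For Cxcl9 these were Il18bp (the interleukin-18 binding protein, r = 0.88), Atox1, the class II antigen presentation genes H2-Ab1 and H2-DMb1, and the co-stimulatory receptor Cd40 (r = 0.84 to 0.83). For Cxcl10 they were Cxcl9 (r = 0.80), Trim30d, E2f1, Tmem106a and the class II gene H2-Aa (r = 0.79 to 0.76). For Cxcr3, 4 of the 5 were Pkp3 (r = 0.96), Kdm2b (r = 0.96), Traf3ip3 (r = 0.96) and Stat4, a transcription factor of interleukin-12 signalling (r = 0.95). The sums share libraries and depth, and few of these genes recur by rank correlation (2, 1 and 1 of 5).

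Genes that interferon-gamma induces alongside the ligands were read from a list. Of the 12 listed, 11 were tested in macrophages, 12 in endothelial cells and 11 in fibroblasts. None passed the edgeR test in either direction, 0 had an unadjusted p under 0.05 and DESeq2 called 0 in the 3 lineages, while every gene tested had a fitted change above 0. With every gene counted at least once in the fit, 2 passed in macrophages. Their median log2 changes were 1.41, 0.64 and 1.69, beside 0.02, -0.00 and -0.01 over all genes tested. Without disease replicate 4 these medians were 0.63, -0.06 and 0.59. Macrophage Gbp2 was 154 and 42.1 CPM in controls and 104, 587 and 261 CPM in disease (1.82, SE 0.89, adjusted p = 0.346). Cd274 there was 45.3 and 13.5 CPM against 23.0, 276 and 108 CPM (2.32, SE 1.08, adjusted p = 0.327).

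The interferon-gamma input list holds feedback inhibitors (Socs1 and Socs3) beside receptor chains and kinases. Its calls were all lower in disease, which was the direction of most calls in these fits. Of the 12 interferon-gamma input genes 0 rose in any lineage tested. In macrophages 2 of 12 fell (6.28% of all genes fell there), in endothelial cells 4 of 12 (11.6%), in fibroblasts 4 of 12 (12.2%), in CD8 cells 1 of 11 (4.36%), in CD4 cells 1 of 9 (4.68%) and in mural cells 0 of 5 (5.58%). Over all cells 6 of the 1042 genes called were higher in disease.

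Ifngr2, a chain of the interferon-gamma receptor, went in macrophages from 113 and 98.2 CPM to 26.3, 28.1 and 23.7 CPM, so that every disease library lay below both controls, as did 22.2% of all genes tested there. It fell by 1.92 on the log2 scale (SE 0.20, adjusted p = 0.00418), and without any 1 library it still passed (highest adjusted p = 0.0482). In endothelial cells it fell by 1.94, from 48.1 and 39.5 CPM to 12.5, 10.4 and 12.96 CPM. In fibroblasts it fell by 1.96, from 41.5 and 38.2 CPM to 9.20, 10.5 and 12.0 CPM. Both calls held in each fit with 1 library left out. Disease replicate 3, low for the ligands, lay with the other disease libraries for this gene.

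Socs1 and Socs3 encode feedback inhibitors of cytokine signalling through the Janus kinases. Socs1 fell by 3.58 in CD8 cells, from 91.6 and 81.2 CPM to 5.62, 7.23 and 8.05 CPM (SE 0.33, adjusted p = 0.00335), a call lost without disease replicate 5 (adjusted p = 0.0666). It also fell in endothelial cells (by 1.47) and fibroblasts (by 1.59), calls lost in each case without control replicate 1, control replicate 2 or disease replicate 5. Socs3 fell by 1.21 in fibroblasts (SE 0.14, adjusted p = 0.00457) and by 1.27 in endothelial cells (adjusted p = 0.0125), the latter lost without the same 3 libraries. In macrophages it fell by 0.83 (adjusted p = 0.0494), a call kept in 1 of 5 fits with a library left out. The kinase gene Jak1 fell in endothelial cells (by 0.75), fibroblasts (by 0.84) and CD4 cells (by 1.74). The endothelial and fibroblast calls were lost without control replicate 1 or disease replicate 5, and the fibroblast call also without control replicate 2. The CD4 call was lost whichever library was left out.

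Of the 10 NF-kappaB and type I interferon input genes, 1 of 10 tested fell in macrophages (beside the 6.28% of all genes), 3 of 10 in endothelial cells (11.6%), 3 of 10 in fibroblasts (12.2%), 2 of 10 in CD8 cells (4.36%), 1 of 4 in mural cells (5.58%) and 0 of 2 in CD4 cells (4.68%). None rose by edgeR's test. Ifnar2, a chain of the type I interferon receptor, fell by 1.61 in macrophages, 2.02 in endothelial cells, 2.00 in fibroblasts and 2.05 in CD8 cells. The endothelial and fibroblast calls held without any 1 library. The macrophage and CD8 calls were lost without control replicate 1 or disease replicate 5, and the CD8 call also without disease replicate 4. Ifnar1, its partner chain, fell by 0.85 in endothelial cells and 0.72 in fibroblasts, and the fibroblast call was lost without control replicate 1, control replicate 2 or disease replicate 5. Nfkbia, the inhibitor that holds NF-kappaB in the cytoplasm, fell in endothelial cells (by 1.72), fibroblasts (by 1.96), CD8 cells (by 2.52) and mural cells (by 1.48), all of them calls lost without control replicate 1 and without disease replicate 5, among others.

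Over the 7 pathway lists together, the number of calls depended on the libraries. In macrophages 4 of 63 genes tested passed (6.35%, beside the 6.46% of all genes), and 1 without control replicate 1 or disease replicate 5, 2 without control replicate 2 and 7 without disease replicate 3. In endothelial cells 10 of 67 passed (14.9%, beside 12%), against 5, 6 and 5 without control replicate 1, control replicate 2 and disease replicate 5. Fibroblasts had 10 calls of 66 (15.2%, beside 12.6%), against 3, 4 and 3 without the same libraries. In CD8 cells 3 of 61 passed (4.92%, beside 4.38%), against 1 without control replicate 1 or disease replicate 4 and 0 without disease replicate 5. In CD4 cells 4 of 28 passed (14.3%, beside 4.97%), against 0 without control replicate 1 or disease replicate 5, 1 without control replicate 2 and 2 without disease replicate 4. In mural cells 2 of 21 passed (9.52%, beside 5.74%), against 1 without control replicate 2 and 0 without control replicate 1, disease replicate 4 or disease replicate 5. No call changed its direction in any of these fits.

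Other chemokines of the lists gave few calls. Of the 12 other T cell recruiting ligands, Ccl3 and Ccl4 rose in CD4 cells, where 3 of the list were tested and 0.29% of all genes rose. Ccl4 went from 48.1 and 13.6 CPM to 316, 681 and 801 CPM (3.96, SE 0.58, adjusted p = 0.0141), a call lost without control replicate 1 or disease replicate 5. Ccl3 had a change of 4.85 (adjusted p = 0.0214), lost also without control replicate 2. Both calls rest on 40 and 20 CD4 cells in controls and 23, 155 and 37 in disease. Over 12 alternatives the adjusted p of each reached 0.16. Cxcl12, a ligand of CXCR4, fell in endothelial cells by 1.86 (SE 0.29, adjusted p = 0.0132), from 2161 and 2551 CPM to 947, 581 and 507 CPM. It fell in fibroblasts by 1.67 (SE 0.30, adjusted p = 0.0201) and in mural cells by 1.88. The endothelial and fibroblast calls were lost without control replicate 1, control replicate 2 or disease replicate 5, and the mural call without control replicate 1, disease replicate 4 or disease replicate 5.

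Of the 9 other lymphocyte chemokine receptors, Ccr7, which guides cells to lymph nodes, rose in endothelial cells, where 8 were tested and 0.348% of all genes rose. It had 1.27 and 0.84 CPM in controls and 9.59, 7.07 and 7.50 CPM in disease (2.83, SE 0.31, adjusted p = 0.0034), and passed without any 1 library. It did not pass in every alternative. Over 13 of them the lowest change was 1.90 and the highest adjusted p was 0.108. Among the 10 genes of receptor expression and signalling, the arrestin gene Arrb2 fell by 1.07 in macrophages, 1.01 in endothelial cells and 1.14 in fibroblasts, where 1 of 9, 1 of 10 and 2 of 9 tested fell beside 6.28%, 11.6% and 12.2% of all genes. The endothelial call held without any 1 library. The macrophage and fibroblast calls were lost without control replicate 1 or disease replicate 5, and the macrophage call also without control replicate 2. The G protein gene Gnai3 fell in fibroblasts (by 0.98) and CD4 cells (by 1.83). The fibroblast call was lost without control replicate 1, control replicate 2 or disease replicate 5, and the CD4 call whichever library was left out. Tbx21, the transcription factor T-bet that induces Cxcr3, was 236 and 45.1 CPM in control CD8 cells and 73.1, 71.5 and 110 CPM in disease, and did not pass. Of the 6 genes listed for the third ligand and for ligand processing or binding, 4 were tested in each of macrophages, endothelial cells, fibroblasts and CD8 cells and none passed edgeR's test. DESeq2 called 0 of them, and 1 had an unadjusted p under 0.05, in endothelial cells. Dpp4, the protease that trims these ligands, was among them. Cxcl11, the third ligand, was not analysed here.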

How the data were processed

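Single cells of 5 libraries were prepared with 10x Genomics 5′ v1.1 chemistry, per the labels' protocols. The deposited matrices hold UMI counts for each gene in each barcode, and per the file headers Cell Ranger 3.1.0 wrote them. Cell Ranger 3, Seurat 3 and the builds mm10 and GRCh38 stand in the submitters' processing notes, with no role given. Deposited barcodes start at 500 UMIs.

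Cells with at least 500 UMIs, 200 genes and at most 10% mitochondrial UMIs were kept, and Scrublet removed 1258 doublets (3.28%). A cell joined the lineage with most distinct markers detected (at least 3, no tie). Counts were summed per library and lineage with at least 20 cells in every library and tested with edgeR 4.0.16 (TMM, filterByExpr, quasi-likelihood F test, Benjamini-Hochberg at 0.05). The code was tested on simulated data. Pairs of lineages had the library as block. Depths and intervals are given in the text, and DESeq2 1.42.0, other filters, gates and left-out libraries were tried. Named genes were the 3 members, fixed pathway lists and the 5 genes most like each member (mean of at least 5 CPM). Members and lists were chosen with earlier results of these data known. Markers of other lineages were counted in every gate. Some genes, and results that rest on them, are not reported here.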

Additional observations from a re-analysis of the deposited data

How the results depend on the processing

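Precision is limited by 2 against 3 libraries, by 2 dendritic cells in control replicate 2, by 13 to 64 NK cells per library and by single cells that hold most ligand UMIs of a small group. No paired analysis was possible because the 2 groups share no replicate number. The fit with NK cells and the gate with a lead of at least 2 distinct markers were chosen after seeing the data.

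The 14 tested changes of a member had 173 alternative values, of which 3 passed and 2 reversed. Outside left-out libraries, 197 of 212 values kept direction, side of the threshold or size. Where a value below changed, the cause was not tested unless fewer libraries or another set of genes made the change by construction. With DESeq2, 1650 genes were called over all cells (1042 with edgeR) and 94 in mural cells (177). With all genes that had 1 count or more in the fit, calls came to 1202 in macrophages (727), 373 in mural cells, 938 in CD8 cells (415) and 278 in CD4 cells (103). There macrophage Cxcl10 (2.22) and CD8 Cxcl9 (2.55, adjusted p = 0.00214) passed. So did 2 changes outside those 14, which only alternatives tested, mural Cxcl10 (2.09, adjusted p = 0.0286) and CD4 Cxcl10 (-1.99, adjusted p = 0.0434). With equal cell numbers per library, 99 genes were called in CD8 and 58 in CD4 cells. Without the library as block, the level differences of Cxcl10 were 1.44 for macrophages minus fibroblasts, -1.59 for endothelial cells minus fibroblasts and 2.41 for fibroblasts minus mural cells, and that of Cxcr3 was -0.98 for CD8 minus CD4 cells, none past the threshold. At 500 UMIs per cell the disease minus control share of CD4 cells with Cxcr3 was -6.42 percentage points (3.63 at 1000).

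Leaving out 1 library, the genes called ranged from 124 to 1235 over all cells, 197 to 1029 in macrophages, 734 to 1543 in endothelial cells (1547 with all), 765 to 1770 in fibroblasts (1715), 9 to 181 in mural cells, 4 to 427 in CD8 cells and 7 to 133 in CD4 cells. Macrophage Cxcr3 ranged from -0.25 to 0.82 (-0.25 without disease replicate 4, -0.09 without control replicate 2). Fibroblast Cxcl9 ranged from 2.80 to 5.70. Level differences of Cxcl9 ranged from 0.12 to 1.11 (macrophages minus endothelial cells) and 2.11 to 2.24 (fibroblasts minus mural cells, adjusted p = 0.0169 without control replicate 2), and that of Cxcr3 from -1.08 to -0.85 (CD8 minus CD4, -0.99 without disease replicate 4). Differences of change in Cxcl9 were 0.57 to 3.98 (macrophages minus endothelial cells), -1.08 to 0.43 (macrophages minus fibroblasts) and -4.16 to 0.26 (fibroblasts minus mural cells, -0.13 without disease replicate 5). Those in Cxcl10 were -7.90 to 2.71 (macrophages minus mural cells, -0.05 without disease replicate 5), -0.80 to 0.76 (endothelial cells minus fibroblasts, 0.03 without disease replicate 5), -8.48 to 1.55 (endothelial minus mural cells) and -9.25 to 1.60 (fibroblasts minus mural cells, 0.28 without control replicate 2). Differences in the share of cells with Cxcl10 were -0.0722 to 2.60 points in endothelial cells, -0.200 to 8.0 in fibroblasts and -0.74 to 1.11 in mural cells (-0.359 without control replicate 2). The 37 calls of a named pathway gene were lost in 85 of 185 such fits, and 0 were reversed.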

Other observations

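Cell groups outside the 8 lineages also held the ligands, each on few cells. Schwann cells, the glia of peripheral nerves, held Cxcl10 at 148 and 383 CPM in controls and 35.9, 3572 and 0 CPM in disease. These levels came from 16 and 22 UMIs in 37 and 18 cells, and from 2, 148 and 0 UMIs in 20, 20 and 14 cells. Disease replicate 4 was the highest and disease replicate 5 the lowest. Epicardial cells, from the outer surface of the heart, gave 5 and 0 Cxcl10 UMIs in 11 and 1 control cells and 5, 71 and 0 UMIs in 8, 8 and 0 disease cells. Monocytes held Cxcl9 at 74.5 and 0 CPM in controls and 0, 505 and 323 CPM in disease.

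The gene Art3, within which Cxcl10 lies on the other strand, had levels of its own in mural cells, at 744 and 424 CPM in controls and 489, 774 and 886 CPM in disease. In CD4 cells of control replicate 1, Cxcl10 was at 206 CPM, on 47 UMIs. With a minimum of 10 cells, a setting chosen after seeing the data, 110 of 1395 genes were called in NK cells by edgeR's quasi-likelihood test, 0 of them higher in disease.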
